A study of Mus musculus with 2 samples.

Results

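Retinal pigment epithelium (RPE) cells were examined in a single-cell RNA data set of the choroid and RPE of 8-week-old wild-type mice of the outbred albino strain ICR. Of 21898 cells, 1106 were RPE cells, 278 of 8497 in library 1 and 828 of 13401 in library 2. A barcode counted as a cell with at least 1000 UMIs (unique molecular identifiers, 1 per captured transcript), at least 500 genes and at most 20% of UMIs from mitochondrial genes. An RPE cell had at least 2% of its UMIs from Rpe65, Rgr, Rlbp1, Lrat, Rdh5 and Ttr, at least 2 UMIs of Rpe65, and at most 5 UMIs of Ptprc, Cdh5, Sox10 and Dcn together, which mark immune, endothelial, melanocyte or Schwann, and stromal cells. Each library pooled the eyes of 1 male and 1 female animal. No genotype, treatment or other age was compared, so the RPE cells were set against all other cells of the same libraries. Comparisons with melanocyte-gated cells and with cells gated on Pax6, Pcp4 and Optc follow.

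The RPE is a single layer of cells between the photoreceptors and the choroidal vessels. It converts all-trans retinol, which returns from the photoreceptors, into 11-cis retinal, takes up shed outer segments, moves ions, water and lactate out of the subretinal space, and forms the outer blood-retina barrier. Its basal side rests on Bruch's membrane, and it stems, like the ciliary epithelium and the neural retina, from the optic neuroepithelium, whereas choroidal melanocytes stem from the neural crest.

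RPE cells made up 3.27% of the cells in library 1 (exact binomial 95% interval 2.90% to 3.67%, counting error only) and 6.18% in library 2 (5.78% to 6.60%), a mean of 4.73% ± 2.06 (SD, n = 2). The 2 intervals did not overlap. The part of dissection and digestion in this difference was not tested. RPE cells were deeper than the rest, with a median of 24876 and 17662.5 UMIs in libraries 1 and 2, against 7682 and 8011 UMIs in all other cells. Their median mitochondrial share was 4.56% and 4.11%, against 2.66% and 3.02% in all other cells. Scrublet, a doublet caller, marked 2 and 38 of the RPE cells, which were kept. Another 33 and 103 barcodes met the RPE part of the gate but held over 5 UMIs of the other lineages, mostly of Dcn; they had a median of 46931 and 35172 UMIs, and Scrublet marked 18 and 67 of them. Between the libraries, 31 cell barcodes were shared, none of them of an RPE cell.

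The cells were chosen by the measured counts of these 10 gate genes, which are therefore described without a test. Ttr, the thyroxine and retinol-binding protein carrier, had 64447 and 65104 CPM in RPE cells, against 1039 and 2051 CPM in all other cells. Rgr, an opsin of the RPE, had 8720.1 and 8098 CPM in RPE cells, against 171 and 265 CPM in all other cells. Rpe65, the isomerase that makes 11-cis retinol, had 6173 and 6546 CPM in RPE cells, against 123 and 216 CPM in all other cells. CPM scales the summed UMI count of a gene to a common total for every library and group, and library 1 stands before library 2 here and in every pair of values below. Rdh5, an 11-cis retinol dehydrogenase, had 5709 and 5499 CPM in RPE cells, against 125 and 202 CPM in all other cells, Rlbp1, which carries 11-cis retinoids, had 2248 and 2409.8 CPM in RPE cells, against 47.3 and 86.6 CPM in all other cells, and Lrat, which esterifies retinol, had 1120 and 1686 CPM in RPE cells, against 30.2 and 68.1 CPM in all other cells. Each of the 6 was detected in 97.5% to 100% of the RPE cells of either library, and their summed share of UMIs had a median of 8.85% and 9.33%, against 0% and 0.0169% in all other cells. Few barcodes lay near the threshold on this share: 0 and 6 RPE cells had 2% to 3%, and 6 and 12 other cells had 1% to 2%. At the limit on other lineages, 4 and 14 RPE cells had exactly 5 UMIs, and 5 and 14 barcodes outside had exactly 6.

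Outside the gate, 16682 genes were tested between RPE cells and all other cells with edgeR on the summed counts of each library, with library as a block. Called genes passed a Benjamini-Hochberg adjusted p under 0.05 and lay at or beyond 1 or -1 on the log2 fold scale. In all, 3823 genes were higher (22.9%) and 5548 were lower (33.3%), so a call in either direction was common. The median log2 fold change over all genes tested was -0.22 with TMM scaling and -0.48 with raw UMI totals. Fold changes below are on the TMM scale, ± gives the standard error, and n is 2 libraries for each group of cells.

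Of the genes higher in RPE cells with at least 100 CPM in them in both libraries, Pon1, a serum esterase carried on HDL, had the highest fold change, with 1273 and 1470.3 CPM in RPE cells, against 21.9 and 44.1 CPM in all other cells (log2 fold change 5.71 ± 0.33, adjusted p = 1.15e-52). Slc16a8, the lactate and proton transporter MCT3 of the basolateral RPE membrane, had 2164 and 2503 CPM in RPE cells, against 40.5 and 80.2 CPM in all other cells (log2 fold change 5.60 ± 0.34, adjusted p = 7.73e-48). Rrh, the opsin peropsin of RPE microvilli, had 493 and 567 CPM in RPE cells, against 11.1 and 21.6 CPM in all other cells (log2 fold change 5.34 ± 0.29, adjusted p = 6.25e-56). For each of these, both RPE libraries lay far above both libraries of all other cells, as their rank by fold change implies. The 20 leading genes at that level spanned log2 fold changes of 5.19 to 5.71. Among them were 4 further carriers, which move amino acids or organic anions: Slc6a20a (5.40), Slc6a13 (5.36), Slc22a8 (5.35) and Slc7a10 (5.30). Otx2, a homeobox factor required for RPE identity, and Krt18, a keratin of simple epithelia, stood there too. Cltrn, the collectrin that helps amino acid transporters reach the membrane, had 747 and 769 CPM in RPE cells, against 15.5 and 28.8 CPM in all other cells, and Acsl6, a long-chain acyl-CoA synthetase, had 395 and 384 CPM in RPE cells, against 9.21 and 15.4 CPM in all other cells. Rd3l (5.56), Ermn (5.52), Cspg5 (5.32), Col9a3 (5.32), Tmem72 (5.31), Dapl1 (5.21), A930028N01Rik (5.46) and Gm15222 (5.24) completed the set together with Rsph10b. Rsph10b overlaps Pms2 and Gm42421 on its strand, so its value (5.52) may hold their reads.

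Of the 10 genes lowest in RPE cells among those with at least 100 CPM in all other cells, Itgbl1 had 0.241 and 0.832 CPM in RPE cells, against 174 and 231 CPM in all other cells (log2 fold change -8.13 ± 0.32, adjusted p = 3.29e-87), and Tnmd, the tendon protein tenomodulin, had 0.241 and 1.497 CPM in RPE cells, against 299 and 335 CPM in all other cells. The fibrillar collagen genes Col1a1 and Col1a2 had log2 fold changes of -7.92 and -7.93, and Col12a1 one of -7.60. Myoc (-7.98), Cyp2f2 (-7.73), Cyp26a1, which degrades retinoic acid (-7.73), Sfrp2 (-7.68) and Chad (-7.60) made up the rest of the 10. None of these 10 genes had overlapping values between RPE cells and all other cells, which follows from their choice by fold change.

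**Figure D1:**
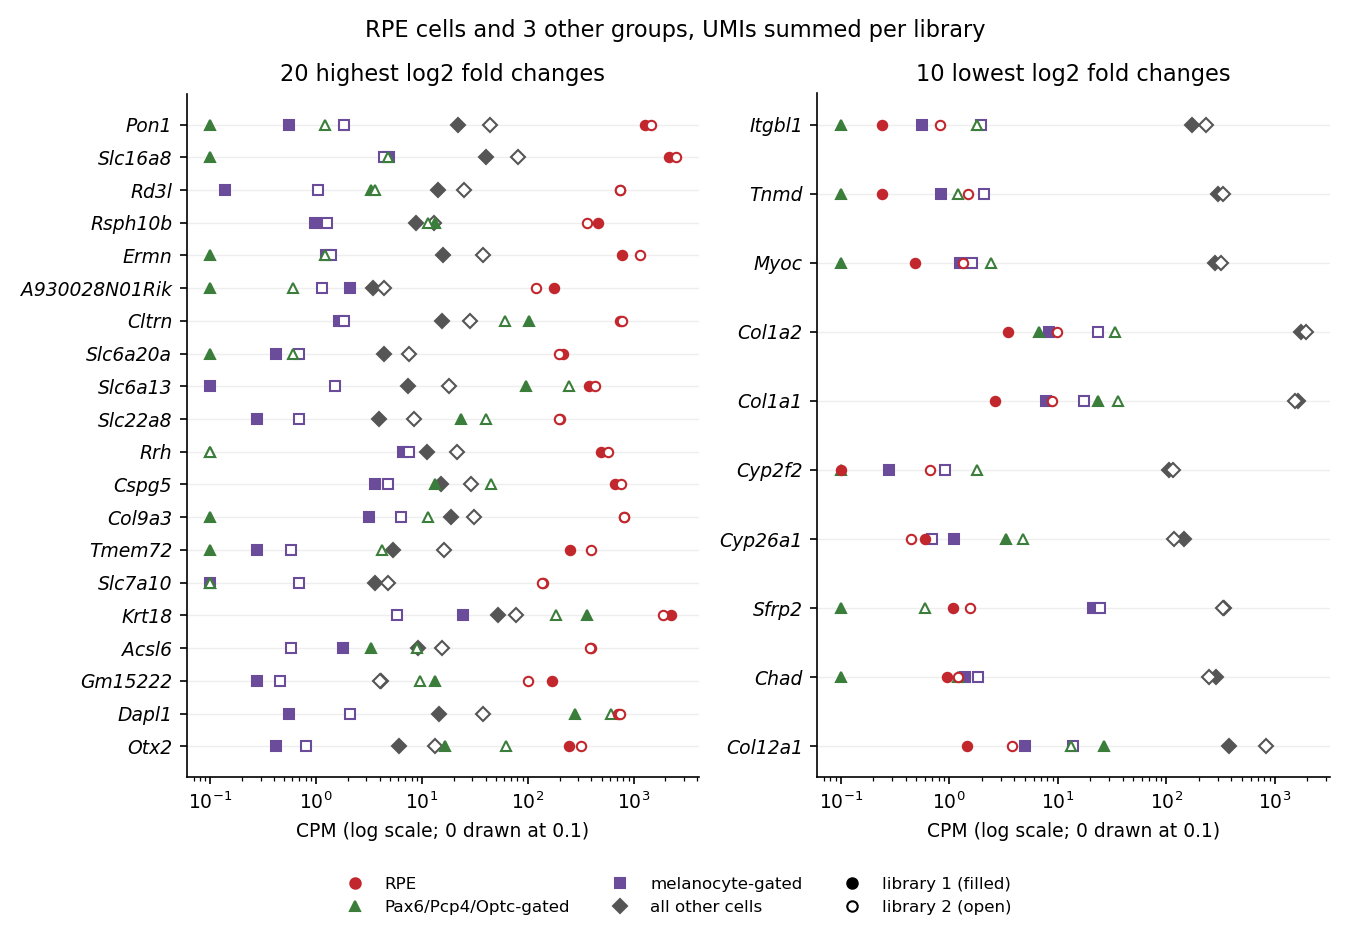
Levels (CPM, log axis, 0 drawn at 0.1) of the 20 genes with the highest and the 10 with the lowest log2 fold change in RPE cells against all other cells, with filled points for library 1 and open points for library 2. By their choice on fold change, the 20 genes have both RPE points right of both points of all other cells. The 10 genes have both RPE points left of them. Melanocyte-gated and Pax6/Pcp4/Optc-gated cells are shown for comparison.

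The bases upstream of a few of these genes are shown because the RPE factors OTX2 and MITF are known to bind short motifs in promoters of visual cycle and pigment genes. Rpe65 and Rlbp1 are gate genes, Pon1 is the first of the leading genes above, and Kcnj13 is the apical potassium channel described below. Each window holds the 250 bases before the annotated start, 5′ to 3′ on the gene's strand, from RefSeq on GRCm38.p6. Capitals mark TAATCC or its reverse complement GGATTA, the core that OTX2 binds, and CATGTG or its reverse complement CACATG, an E-box that MITF can bind. The palindromic E-box CACGTG was searched as well and is in none of the 4.
Rpe65: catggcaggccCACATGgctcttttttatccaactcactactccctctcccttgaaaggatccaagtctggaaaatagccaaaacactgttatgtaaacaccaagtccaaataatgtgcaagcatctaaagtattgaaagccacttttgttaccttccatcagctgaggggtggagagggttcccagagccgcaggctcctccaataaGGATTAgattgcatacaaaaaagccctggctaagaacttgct
Rlbp1: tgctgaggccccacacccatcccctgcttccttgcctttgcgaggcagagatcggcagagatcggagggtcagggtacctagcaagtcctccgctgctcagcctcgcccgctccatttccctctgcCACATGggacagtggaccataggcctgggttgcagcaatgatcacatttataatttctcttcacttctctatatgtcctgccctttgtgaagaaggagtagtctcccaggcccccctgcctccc
Pon1: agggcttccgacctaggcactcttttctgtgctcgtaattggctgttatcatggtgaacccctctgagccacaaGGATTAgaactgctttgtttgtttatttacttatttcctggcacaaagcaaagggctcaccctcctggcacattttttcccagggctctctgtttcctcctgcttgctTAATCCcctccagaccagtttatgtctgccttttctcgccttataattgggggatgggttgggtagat
Kcnj13: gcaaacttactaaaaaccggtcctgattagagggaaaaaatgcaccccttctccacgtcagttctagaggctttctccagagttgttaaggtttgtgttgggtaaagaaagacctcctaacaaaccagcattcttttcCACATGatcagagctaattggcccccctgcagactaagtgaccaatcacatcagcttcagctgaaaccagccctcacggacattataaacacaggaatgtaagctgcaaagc
The windows lie at chr3:159598931-159599180, plus strand (Rpe65), chr7:79387028-79387277, minus strand (Rlbp1), chr6:5193947-5194196, minus strand (Pon1) and chr1:87394730-87394979, minus strand (Kcnj13). Counted from -1 at the last base, Rpe65 held GGATTA at -42 and CACATG at -239, Rlbp1 held CACATG at -124, Pon1 held TAATCC at -68 and GGATTA at -176, and Kcnj13 held CACATG at -112. The 4 windows shown all hold a motif, whereas those of Lrat and Rdh5 of the gate and of Slc16a8 and Rrh hold none, and 3 of the 5 gate genes matched in the table hold at least 1. Of the 20 leading genes 17 were matched, and 6 of them held at least 1 of the 3 motifs (35.3%), against 25.5% of 27025 genes. By motif, 3 of the 17 held TAATCC, 4 held CATGTG and 1 held CACGTG, against 7.21%, 13.8% and 6.86% of all genes. The motifs CATGTG and CACATG can overlap each other. A match is a description of these letters, and binding was not measured.

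Retinoid genes outside the gate were higher in RPE cells for uptake and conversion of retinol. Of 13 members tested out of 14, 8 rose and 2 fell, with a median log2 fold change of 1.99 against -0.22 over all genes. Stra6, the receptor that takes retinol from its plasma carrier, had 537 and 491 CPM in RPE cells, against 21.2 and 26.6 CPM in all other cells (log2 fold change 4.68 ± 0.28). Rdh10, a retinol dehydrogenase, had 1292 and 1473 CPM in RPE cells, against 166 and 214 CPM in all other cells (log2 fold change 3.12 ± 0.29). For both the lowest RPE value exceeded the highest value of all other cells several times over. Abca4, a retinoid flippase best known from photoreceptor outer segments, had 125 and 159 CPM in RPE cells, against 4.11 and 11.4 CPM in all other cells (log2 fold change 4.60 ± 0.23, adjusted p = 4.85e-54). The dehydrogenases Rdh11 (2.59) and Rdh14 (1.77) and the retinol saturase Retsat (1.99) rose as well, with the peropsin gene Rrh given above. Rbp3 and Rdh12, which photoreceptors express, fell (-2.46 and -1.04), and neither was called with DESeq2 (-3.30 and -1.01). Rbp4, the plasma carrier of retinol, had 12.0 and 4.43 CPM in RPE cells and 16.4 and 10.1 CPM in all other cells and was not called.

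The lactate, potassium and bicarbonate transporters of the RPE stood high, each through particular members of its family. Of 27 ion and fluid transport genes tested out of 29, 13 rose and 9 fell, with a median of 0.56 that turned to -0.57 without a filter on low counts, -0.16 without RPE library 2 and -0.12 with at most 1 UMI of the other lineages. Bsg, the basigin that chaperones monocarboxylate transporters, had 7465 and 7482 CPM in RPE cells, against 759 and 782 CPM in all other cells (log2 fold change 3.53 ± 0.33, adjusted p = 8.66e-23), and Slc16a1, the transporter MCT1, rose by 2.59. Slc16a3, the transporter MCT4, had 0.241 and 0.665 CPM in RPE cells, against 32.8 and 23.8 CPM in all other cells (log2 fold change -5.40 ± 0.32, adjusted p = 7.65e-46). MCT3 and MCT1 were thus high in RPE cells while MCT4 was under 1 CPM in them. Kcnj13, the apical channel Kir7.1, had 873 and 1258 CPM in RPE cells, against 132 and 159.7 CPM in all other cells (log2 fold change 3.10 ± 0.28, adjusted p = 2.53e-24). Of the sodium pump's beta subunits, Atp1b1 had 788 and 1016 CPM in RPE cells, against 35.1 and 65.1 CPM in all other cells (log2 fold change 4.48 ± 0.30), whereas Atp1b3 had 33.3 and 49.3 CPM in RPE cells, against 266 and 405 CPM in all other cells (log2 fold change -2.76 ± 0.24). Atp1b2 rose as well (2.02). Of the carbonic anhydrases, the membrane-bound Car12 (5.01) and Car14 (4.34) rose and the cytosolic Car2 fell (-3.39), while Car4 was at 0 in both RPE libraries. The bicarbonate carriers Slc4a5 (4.83) and Slc4a2 (3.16) and the chloride channel genes Clic6 (5.11) and Clcn2 (3.89) rose, and the water channel Aqp1 fell (-6.14). Best1, an anion channel of the RPE, had 0.241 and 0.443 CPM in RPE cells, against 0.815 and 1.10 CPM in all other cells and was not called (-1.14). Trpm3, a cation channel, had 1267 and 1352 CPM in RPE cells, against 35.6 and 71.0 CPM in all other cells (log2 fold change 4.95 ± 0.31), and its relative Trpm1, which melanocytes express, had 69.4 and 63.9 CPM in RPE cells, against 215 and 216 CPM in all other cells (log2 fold change -1.44 ± 0.21). Within the Trpm pair the RPE values lay above for Trpm3 and below for Trpm1 in both libraries.

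**Figure D2:**
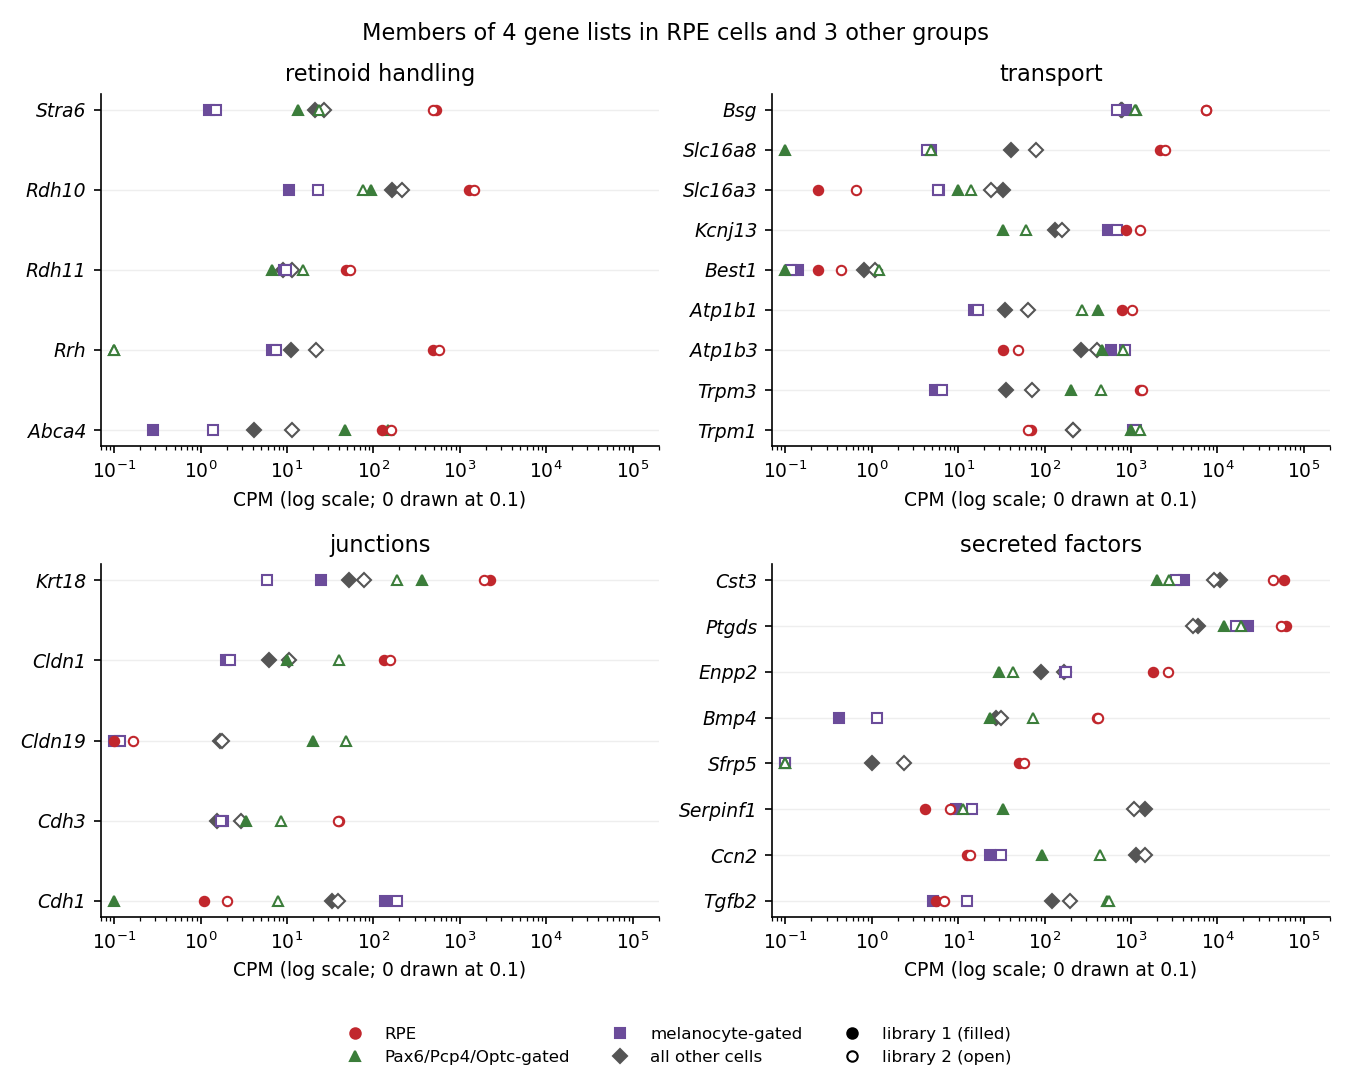
Levels (CPM, log axis, 0 drawn at 0.1) of members of 4 lists in RPE cells, melanocyte-gated cells, Pax6/Pcp4/Optc-gated cells and all other cells, with filled points for library 1 and open points for library 2. RPE points lie right of all other cells for Slc16a8, Atp1b1, Trpm3 and Cdh3, and left of them for Slc16a3, Atp1b3, Trpm1 and Cdh1.

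Carriers of folate, glutamate, GABA and dicarboxylates were also high. Of 17 nutrient transporter genes 8 rose and 4 fell (median 0.83). Slc1a1, a glutamate transporter, had 363 and 475 CPM in RPE cells, against 17.2 and 29.0 CPM in all other cells (log2 fold change 4.47 ± 0.27, adjusted p = 1.57e-48). Slc13a3, a dicarboxylate carrier, had 52.3 and 61.9 CPM in RPE cells, against 1.47 and 3.69 CPM in all other cells (log2 fold change 4.82 ± 0.22), and Slc6a13, a carrier of GABA and taurine, had 377 and 429.5 CPM in RPE cells, against 7.41 and 18.2 CPM in all other cells (log2 fold change 5.36 ± 0.28). The folate receptor Folr1 (3.70) and the folate carrier Slc46a1 (3.07) rose together, as did the glucose transporter Slc2a1 (1.68). Slc2a3, another glucose transporter, fell (-3.08), as did the cystine carrier Slc7a11 (-4.54). Slc6a6, the taurine transporter, was not called (0.25).

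Junction genes showed P-cadherin, claudin-1 and simple keratins in RPE cells, with little E-cadherin. Of 24 junction and polarity genes 11 rose and 7 fell (median 0.37). Cdh3, P-cadherin, had 39.5 and 39.1 CPM in RPE cells, against 1.56 and 2.97 CPM in all other cells (log2 fold change 4.40 ± 0.22, adjusted p = 7.78e-62). Cdh1, E-cadherin, had 1.08 and 2.00 CPM in RPE cells, against 32.9 and 38.9 CPM in all other cells (log2 fold change -4.21 ± 0.26, adjusted p = 1.07e-45). Cldn1 had 132 and 157 CPM in RPE cells, against 6.13 and 10.7 CPM in all other cells (log2 fold change 4.41 ± 0.23), and Cldn19, a claudin known from human RPE, had 0 and 0.166 CPM in RPE cells, against 1.67 and 1.76 CPM in all other cells. RPE cells were on the high side for Cdh3 and Cldn1 and on the low side for Cdh1 and Cldn19. The keratins Krt8 (5.12) and Krt18 (5.28), the claudins Cldn2 (4.74) and Cldn10 (1.81), the junction proteins Ocln (2.46) and Tjp3 (2.79), the apical determinant Crb2 (3.85), the microvillus linker Ezr (2.58) and N-cadherin, Cdh2 (1.37), also rose. Epcam (-5.40), F11r (-4.40) and Prom1 (-5.97) fell.

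Of the receptors for outer segment uptake, Mertk and Tyro3 rose and Axl fell. Over the phagocytosis list 3 of 18 genes rose and 7 fell (median -0.11), beside the 22.9% of all genes called higher. Without RPE library 1, 5 rose and the median was 0.03. Mertk had 58.2 and 65.9 CPM in RPE cells, against 13.2 and 21.0 CPM in all other cells (log2 fold change 2.14 ± 0.19, adjusted p = 1.02e-25), and Tyro3 had 10.1 and 8.65 CPM in RPE cells, against 4.41 and 3.96 CPM in all other cells (log2 fold change 1.42 ± 0.23). Axl had 0.964 and 1.72 CPM in RPE cells, against 63.9 and 85.2 CPM in all other cells (log2 fold change -5.48 ± 0.26). The bridging ligands Gas6 (-2.12), Pros1 (-4.96) and Mfge8 (-2.18) fell, and the integrin genes Itgav (0.94) and Itgb5 (-0.30) were not called. Myo7a, a motor of melanosomes and phagosomes, was the other member that rose (1.04), but not with raw UMI totals (0.78).

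Lysosomal genes were mixed, with 5 of 23 higher and 6 lower (median -0.07). Ctsd, the protease cathepsin D, had 1397 and 1929.9 CPM in RPE cells, against 301 and 352 CPM in all other cells (log2 fold change 2.59 ± 0.29, adjusted p = 3.93e-17), and it overlaps Gm49369 on its strand. Psap, the precursor of saposins, had 1263 and 1631 CPM in RPE cells, against 339.7 and 423 CPM in all other cells (log2 fold change 2.17 ± 0.28). Npc2, a lysosomal cholesterol carrier (1.41), the peptidase Tpp1 (1.66) and the proton pump subunit Atp6v1a (1.20) rose. Cathepsin S, Ctss, which macrophages express, fell (-4.28).

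Pigment genes were present at moderate levels and below those of all other cells, which include melanocytes. Of 18 melanin and melanosome genes 2 rose and 11 fell (median -1.51). The enzymes Tyr (-1.01), Tyrp1 (-2.16) and Dct (-1.20) fell, and the call of Dct was lost when either RPE library was left out (-1.22 and -1.20). Rab27a, which tethers melanosomes, and Hps4, a subunit of a complex for lysosome-related organelles, rose (1.52 and 1.74). Tyrp1 had 225 and 242 CPM in RPE cells, against 1258 and 1226 CPM in all other cells, and its level in melanocyte-gated cells was 6323 and 6839 CPM.

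Otx2, Lhx2, Six3 and Rax were the 4 of 16 eye transcription factor genes that rose, out of 18 listed, and 5 fell (median -0.14). Otx2 had 244 and 318 CPM in RPE cells, against 6.09 and 13.4 CPM in all other cells (log2 fold change 5.19 ± 0.26, adjusted p = 2.29e-65). Lhx2 had 79.0 and 73.7 CPM in RPE cells, against 2.74 and 6.05 CPM in all other cells (log2 fold change 4.45 ± 0.22), Six3 had 141 and 127 CPM in RPE cells, against 13.0 and 15.8 CPM in all other cells (log2 fold change 3.47 ± 0.21), and Rax had 11.1 and 20.01 CPM in RPE cells, against 1.59 and 5.45 CPM in all other cells (log2 fold change 2.53 ± 0.23). The values of RPE cells and all other cells did not overlap for any of the 4, which were picked as the members called higher. Mitf, the pigment cell regulator, had 78.2 and 112 CPM in RPE cells and 42.5 and 87.8 CPM in all other cells and was not called (0.86). Tfec, Foxc1, Nr2f1 and Zic1 were among those that fell, and of these Tfec (-3.84) and Zic1 (-3.14) were not called with DESeq2.

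Among secreted factors, 11 of 27 rose and 10 fell (median 0.36). Ptgds, a prostaglandin D synthase that binds retinoids, had 61863 and 54816 CPM in RPE cells, against 5894 and 5232 CPM in all other cells (log2 fold change 3.64 ± 0.38, adjusted p = 1.78e-19). Cst3, the protease inhibitor cystatin C, had 58673 and 43756 CPM in RPE cells, against 10738 and 9107 CPM in all other cells (log2 fold change 2.61 ± 0.36, adjusted p = 6.51e-12; not called with DESeq2, at 2.58). Enpp2, autotaxin, had 1776 and 2675 CPM in RPE cells, against 92.1 and 169 CPM in all other cells (log2 fold change 4.38 ± 0.32). For all 3, both RPE values lay above both values of all other cells. Of the bone morphogenetic proteins, Bmp4 (4.07), Bmp7 (4.29), Bmp6 (3.03) and Bmp2 (1.88) all rose. The Wnt antagonist Sfrp5 had 50.2 and 58.4 CPM in RPE cells, against 0.996 and 2.36 CPM in all other cells (log2 fold change 5.34 ± 0.22), and Sfrp1 rose (2.82), while Frzb fell (-3.91). Serpinf1, which encodes PEDF, had 4.10 and 8.09 CPM in RPE cells, against 1465 and 1098 CPM in all other cells (log2 fold change -7.43 ± 0.36, adjusted p = 4.54e-47). Its level was thus very low in RPE cells of both libraries. Ccn2 (-6.35), Tgfb1 (-5.02) and Tgfb2 (-4.39) fell. Vegfa, the endothelial growth factor, had 228 and 177 CPM in RPE cells and 151 and 152 CPM in all other cells and was not called (0.66).

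Most matrix genes fell, and the type IV collagen chains of RPE cells differed from those of the other cells. Of 28 basement membrane and matrix genes tested out of 29, 7 rose and 18 fell (median -2.62). Col4a3 had 97.4 and 125 CPM in RPE cells, against 7.23 and 17.8 CPM in all other cells (log2 fold change 3.52 ± 0.21), and Col4a4 had 129 and 154 CPM in RPE cells, against 11.4 and 20.8 CPM in all other cells (log2 fold change 3.44 ± 0.22). Col4a1 had 2.65 and 8.70 CPM in RPE cells, against 284 and 451 CPM in all other cells (log2 fold change -5.82 ± 0.28, adjusted p = 9.24e-57), and Col4a2 fell too (-5.12). RPE cells lay above all other cells for the alpha3 and alpha4 chains and below them for alpha1 and alpha2, in both libraries. The network collagens Col8a1 (1.77) and Col8a2 (1.55), Col18a1 (1.47) and the linker Nid2 (1.35) rose. Mfrp rose as well (4.68) and overlaps C1qtnf5 on its strand, whose own count was too low to be tested. Timp3, a protease inhibitor of Bruch's membrane, was not called (0.40).

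Complement genes mostly fell, with 3 of 17 higher and 10 lower out of 18 listed (median -3.65), and the regulator Clu was among those that rose. Clu, clusterin, had 4424 and 4600.1 CPM in RPE cells, against 705 and 735 CPM in all other cells (log2 fold change 2.90 ± 0.32, adjusted p = 5.30e-18). Cfi, factor I, rested on 2 and 5 UMIs in RPE cells, and its call (log2 fold change 1.89) was lost with DESeq2 (1.86), raw UMI totals (1.61), no filter on low counts (1.81) and without either RPE library (1.96 and 1.78). Over all the alternatives run, 1 to 3 complement genes were called higher. C3 (-6.83), C4b (-4.74) and Cfb (-6.16) fell.

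Lipid genes moved in both directions. Of 21 lipid handling genes tested out of 22, 8 rose and 4 fell, with a median of 0.28 that turned to -0.03 without a filter on low counts and -0.11 without RPE library 1. Apoe had 12276 and 14037 CPM in RPE cells, against 3337 and 3491 CPM in all other cells (log2 fold change 2.20 ± 0.33, adjusted p = 2.86e-10). Pltp, the phospholipid transfer protein, had 799 and 972 CPM in RPE cells, against 100.3 and 103 CPM in all other cells (log2 fold change 3.37 ± 0.28). Vldlr (3.40), Scarb1 (1.67), both lipoprotein receptors, and the elongases Elovl2 (3.52) and Elovl4 (2.54) rose, while the cholesterol exporters Abca1 (-1.03) and Abcg1 (-4.82) and the fatty acid-binding proteins Fabp3 (-4.00) and Fabp5 (-4.69) fell. The call of Abca1 was lost without RPE library 1 (-0.78).

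Genes of fatty acid oxidation and ketone body synthesis rose together. Of 16 members 11 rose and none fell (median 1.497, against -0.22 over all genes). Cpt2, a mitochondrial carnitine palmitoyltransferase, had 24.3 and 34.0 CPM in RPE cells, against 3.71 and 4.52 CPM in all other cells (log2 fold change 3.08 ± 0.21, adjusted p = 2.25e-39). Cpt1a (1.77), Slc25a20 (1.42), Acadvl (2.20), Acadl (1.65), Acaa2 (2.77) and Ppara, the nuclear receptor that controls this pathway (2.73), were among those that rose. Oxct1, the enzyme that uses ketone bodies, was not called (-0.52). Of 24 genes of mitochondrial respiration tested out of 25, 12 rose and 1 fell (median 1.00), and with raw UMI totals 7 rose. The mitochondrial RNA share of RPE cells was also higher, 4.78% and 4.93% of summed UMIs against 2.79% and 3.27% in all other cells. Against melanocyte-gated cells, whose share was 2.60% and 2.93%, 3 of 23 respiration genes rose and 1 fell. Against Pax6/Pcp4/Optc-gated cells, whose share was 11.3% and 10.8%, 2 of 23 rose and 0 fell. The part of the mitochondrial share in these calls was not tested.

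Of 14 glycolysis genes tested out of 15, 5 rose and 2 fell (median 0.48). Ldhb, the lactate dehydrogenase subunit of oxidative tissues, had 959 and 909 CPM in RPE cells, against 196 and 173 CPM in all other cells (log2 fold change 2.59 ± 0.27, adjusted p = 7.22e-19). Ldha, the subunit of glycolytic tissues, had 119 and 117 CPM in RPE cells, against 529 and 424 CPM in all other cells (log2 fold change -1.75 ± 0.25, adjusted p = 3.01e-11). The hexokinase gene Hk2 had 9.88 and 6.54 CPM in RPE cells, against 460.2 and 304 CPM in all other cells (log2 fold change -5.28 ± 0.27, adjusted p = 6.59e-61), and Hk1 was not called (-0.30). Ldhb was higher and Ldha and Hk2 lower in RPE cells of both libraries. Eno1 (2.19), Pgk1 (1.26), Pfkm (1.49) and Pfkl (1.19) also rose.

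Iron and antioxidant genes split, with 7 of 25 higher and 9 lower (median -0.23, which was -0.57 without RPE library 1 and 0.30 without RPE library 2). Trf, transferrin, had 5194 and 6283 CPM in RPE cells, against 197 and 361 CPM in all other cells (log2 fold change 4.67 ± 0.35, adjusted p = 1.52e-34), and it overlaps Gm20425 on its strand. Cat, catalase, had 206 and 189.8 CPM in RPE cells, against 24.0 and 31.7 CPM in all other cells (log2 fold change 3.09 ± 0.22), and Gpx4, a peroxidase of lipid hydroperoxides, had 5245 and 4298 CPM in RPE cells, against 1038 and 868 CPM in all other cells (log2 fold change 2.58 ± 0.31). Nqo1 (3.18) and the ferroxidase Heph (1.97) rose, whereas the ferroxidase Cp (-4.07), the iron exporter Slc40a1 (-4.65) and the secreted peroxidase Gpx3 (-4.96) fell.

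Cell cycle genes were low, with 1 of 12 higher and 8 lower (median -2.65). Mki67 had 0 and 0.721 CPM in RPE cells, against 4.05 and 15.5 CPM in all other cells and Top2a had 0 and 0.166 CPM in RPE cells, against 4.98 and 12.6 CPM in all other cells. Cdk1, the mitotic kinase, was the member that rose, with 28.0 and 34.8 CPM in RPE cells, against 3.43 and 3.82 CPM in all other cells (log2 fold change 3.37 ± 0.21, adjusted p = 2.33e-45). Of 16 immediate early and heat shock genes 1 rose and 7 fell (median -1.10). That 1 was Jun (1.15), whose call was lost with raw UMI totals (0.89).

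**Figure D3:**
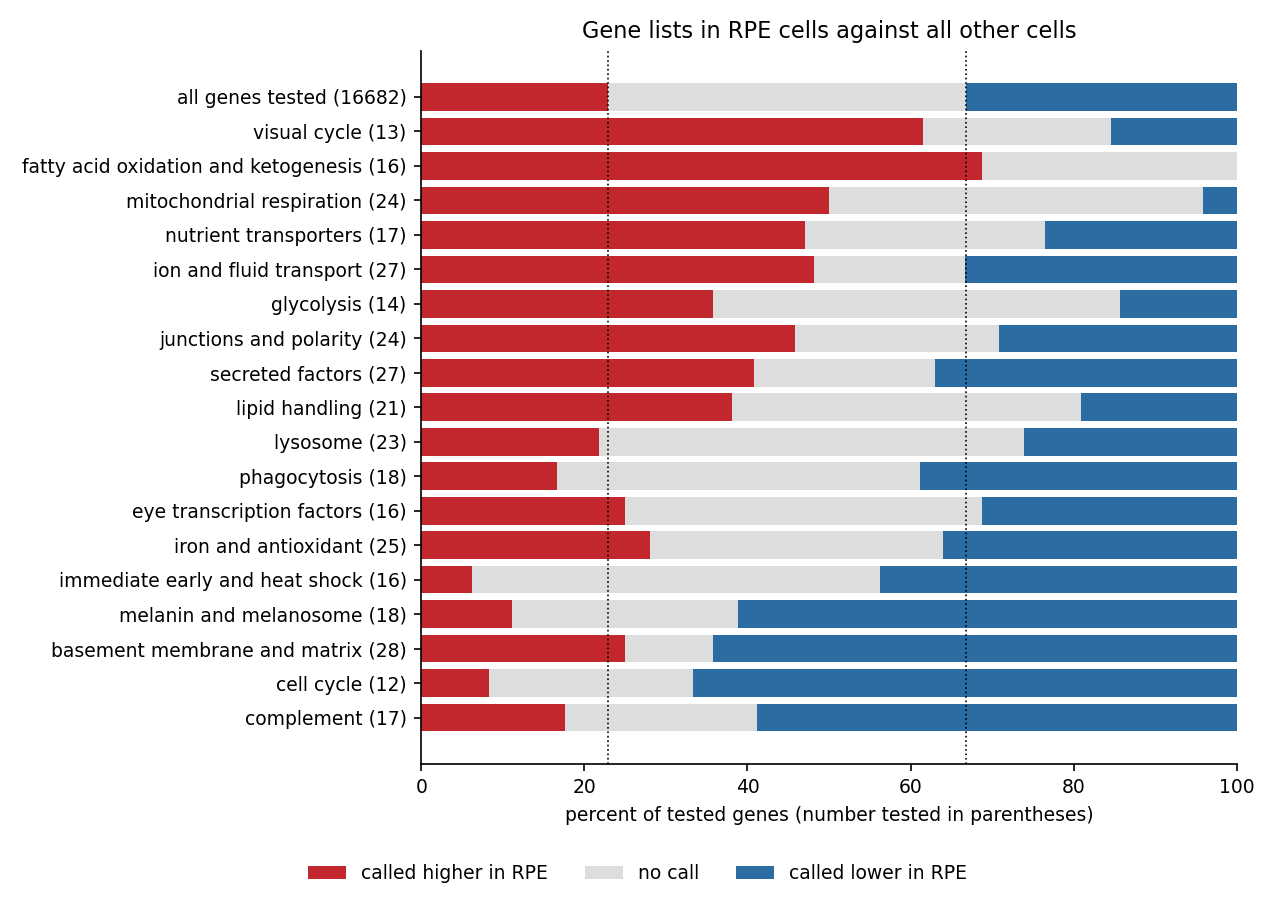
Percent of the tested genes of each of the 18 lists called higher, not called or called lower in RPE cells against all other cells, with the number tested in parentheses. Dotted lines carry down the shares over all genes, 22.9% higher and 33.3% lower; fatty acid oxidation and ketogenesis has 11 of 16 genes higher and none lower, and complement 10 of 17 lower.

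Melanocyte-gated cells, the pigment cells of the choroid, numbered 632 and 892. They had at least 5 UMIs of Mlana, Pmel and Dct together and at least 1 of Sox10, and their summed mitochondrial share was 2.60% and 2.93%. Against them 3006 of 12598 genes were higher in RPE cells (23.9%) and 2739 lower (21.7%), and with raw UMI totals the higher share of the calls was 41.6% in place of 52.3%. Melanin and melanosome genes outside both gates were lower in RPE cells for 12 of 15 members and higher for 1 (median -3.28, against 0.03 over all genes tested). This comparison uses the same RPE sums as the one above. Tyrp1 had 225 and 242 CPM in RPE cells, against 6323 and 6839 CPM in melanocyte-gated cells (log2 fold change -4.55 ± 0.24, adjusted p = 1.10e-74), and Mitf had 78.2 and 112 CPM in RPE cells, against 147 and 382 CPM in melanocyte-gated cells (log2 fold change -1.09 ± 0.17). Both melanocyte values exceeded both RPE values for these 2 genes. Nutrient transporter genes were higher for 10 of 15 members (median 3.24), retinoid genes for 8 of 11 (2.70), junction genes for 12 of 19 (2.96) and secreted factors for 15 of 27 (1.86). Respiration genes were higher for 3 of 23 members (0.26), and glycolysis genes for 1 of 14 (-0.01, and 0.02 without RPE library 2). The leading genes by the fixed level rule were Rd3l (10.46), Pon1, Slc24a1, Ermn, Tmem72, Adra2c, Clic6, Tshr, Dapl1 and Sostdc1. Tshr, the thyrotropin receptor, had 208 and 325 CPM in RPE cells, against 0.278 and 0.577 CPM in melanocyte-gated cells (log2 fold change 9.50 ± 0.31, adjusted p = 2.58e-200), and Adra2c, an adrenergic receptor, had 118 and 166 CPM in RPE cells, against 0 and 0.346 CPM in melanocyte-gated cells (log2 fold change 9.76 ± 0.32). Lowest were C2cd4b (-7.72), Scrg1 (-7.35), Gjb2 (-7.10), Syt4 (-7.02) and Cort (-6.97).

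Cells gated on Pax6, Pcp4 and Optc, genes of the ciliary epithelium, were few, 21 and 99, and their mitochondrial RNA share of 11.3% and 10.8% was above that of RPE cells. Markers of other cell types were high in them. The 6 mural cell markers summed to 217 and 309 CPM in RPE cells, against 5892 and 2727 CPM in Pax6/Pcp4/Optc-gated cells, of which Acta2 made up 4315 and 1672 CPM. The 5 Mueller glia markers summed to 609 and 600.1 CPM in RPE cells, against 2654 and 3035 CPM in Pax6/Pcp4/Optc-gated cells, and the 7 melanocyte markers to 2172 and 2184 CPM in RPE cells, against 15104 and 11079 CPM in Pax6/Pcp4/Optc-gated cells. The part of these cell types in the folds below was not tested. Against the Pax6/Pcp4/Optc-gated cells 1730 of 11844 genes were higher in RPE cells (14.6%) and 1875 lower (15.8%), with 36.8% of the calls higher with raw UMI totals in place of 48.0%. DESeq2 gave 946 higher genes, and leaving out either RPE library gave 938 to 1000. Slc16a8 had 2164 and 2503 CPM in RPE cells, against 0 and 4.84 CPM in Pax6/Pcp4/Optc-gated cells (log2 fold change 9.54 ± 0.37, adjusted p = 1.14e-38), and Kcnj13 had 873 and 1258 CPM in RPE cells, against 33.3 and 61.1 CPM in Pax6/Pcp4/Optc-gated cells (log2 fold change 4.73 ± 0.27). Otx2 had 244 and 318 CPM in RPE cells, against 16.7 and 62.9 CPM in Pax6/Pcp4/Optc-gated cells (log2 fold change 3.03 ± 0.30), whereas Rax had 11.1 and 20.01 CPM in RPE cells, against 117 and 184 CPM in Pax6/Pcp4/Optc-gated cells (log2 fold change -3.03 ± 0.30). RPE cells were higher for Slc16a8, Kcnj13 and Otx2, and lower for Rax. Lhx2 was not called (-0.26). Mertk had 58.2 and 65.9 CPM in RPE cells, against 0 and 5.45 CPM in Pax6/Pcp4/Optc-gated cells (log2 fold change 4.14 ± 0.48). Aqp4 (-7.36), Aqp1 (-4.82), Car2 (-5.95) and Slc4a4 (-3.77), genes of fluid secretion, were lower in RPE cells. Slc1a1 had 363 and 475 CPM in RPE cells, against 0 and 0.605 CPM in Pax6/Pcp4/Optc-gated cells. Rrh, Slc7a10, Tshr, Rbp4 and Sfrp5 had no UMI in these few cells, so no fold is given. The depth of this group limits what its zeros can show.

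Some transcripts of photoreceptors were found in RPE cells, and the following genes were picked after their values were seen. Rom1, a disc rim protein, had 336 and 302 CPM in RPE cells, against 18.4 and 23.4 CPM in all other cells (log2 fold change 4.19 ± 0.25, adjusted p = 6.76e-49). Prcd had 418 and 434 CPM in RPE cells, against 14.3 and 22.4 CPM in all other cells, Slc24a1, the sodium, calcium and potassium exchanger of rods, had 419 and 563 CPM in RPE cells, against 11.4 and 25.4 CPM in all other cells, and Gnat2, the cone transducin, had 18.4 and 21.7 CPM in RPE cells, against 0.349 and 1.80 CPM in all other cells. All 4 stood higher in RPE cells in both libraries. Gnat2 was the 1 of 5 cone markers called higher, while 2 were called lower and Opn1sw and Arr3 had no UMI in RPE cells. The 5 cone markers summed to 18.7 and 22.9 CPM in RPE cells, against 31.8 and 29.7 CPM in all other cells. The other rod markers did not follow Rom1: of 8 rod markers, which summed to 339 and 312 CPM in RPE cells, against 61.0 and 87.2 CPM in all other cells, 1 rose, 6 fell and 1 was not called, and the free RNA of barcodes with at most 100 UMIs held their sum at 881 and 481 CPM. Ins2, an insulin gene, had 269 and 99.8 CPM in RPE cells, against 3.04 and 3.05 CPM in all other cells (log2 fold change 5.99 ± 0.26, adjusted p = 7.46e-38). Rom1 itself was at 106 and 86.7 CPM in the free RNA. The part of free RNA in the RPE levels of these photoreceptor genes was not tested.

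Summed markers of fibroblasts, endothelium, mural cells and lymphocytes were lower in RPE cells than in all other cells, which in part follows from the gate. The sums of rods, given above, and Mueller glia were not lower. Even so, 6 of 8 rod markers and 3 of 5 Mueller glia markers were called lower. Summed over 5 markers outside the gate, fibroblast genes reached 12.3 and 32.7 CPM in RPE cells, against 4663 and 5025 CPM in all other cells. Endothelial genes reached 6.27 and 12.9 CPM in RPE cells, against 748 and 685 CPM in all other cells. For mural cells 5 of 6 markers fell, for T and NK cells 4 of 4 and for B cells 4 of 4. By the fibroblast genes Col1a1, Col1a2, Col3a1 and Lum, at 11.3 and 30.8 CPM in RPE cells, free RNA made up an estimated 0.331% and 0.947% of the RPE UMIs. The gate limits Dcn, a stromal gene, and so may limit fibroblast RNA in these cells, which can make this estimate low. The 6 macrophage markers summed to 86.6 and 112 CPM in RPE cells, against 596 and 814 CPM in all other cells, and most of the RPE sum came from Csf1r, with 63.9 and 54.9 CPM. The 7 melanocyte markers outside the gate summed to 2172 and 2184 CPM in RPE cells, against 10356 and 8837 CPM in all other cells, and most of the RPE sum came from Dct, a gene RPE also expresses. The 5 Mueller glia markers summed to 609 and 600.1 CPM in RPE cells, against 568 and 572 CPM in all other cells, with 3 lower and none higher, and Glul, glutamine synthetase, made up 596 and 579 CPM of the RPE sum.

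Malat1 and Gm42418 ranked among the 3 most variable genes of RPE cells in both libraries. Each cell was thinned to 3000 UMIs (264 and 765 cells, 14 and 63 shallower ones left out), and genes were ranked by variance over mean, the Fano factor. The median Fano factor over genes with a thinned mean of at least 0.3 UMIs was 1.11 and 1.09, close to that of counting alone. Outside the gate 20 genes ranked in the top 30 in both libraries, among them Gm42418, Malat1, Ptgds, Pmel, Trf, Cst3, Cryab, Lars2, Apoe, Jun, Enpp2, Hmox1, Mt1, Fos, Ifrd1, Cox8b, Sult1c1, Jund and Atf3. At 5000 UMIs, 19 genes did so, 16 of them shared, and without Scrublet doublets 23, of which 19 were shared. Malat1, a nuclear long noncoding RNA, had a Fano factor of 98.7 and 54.2, and Gm42418 one of 55.9 and 168. The secreted Ptgds and Cst3 and the pigment gene Pmel ranked from 3 to 8, and the immediate early genes Jun and Fos from 10 to 16. The thinned count of Malat1 ran from 0 UMIs at the tenth percentile to 148 and 101 at the ninetieth. Trf, in contrast, ran from 2 and 3 UMIs to 33 and 45 between the same percentiles, with 2.27% and 1.31% of cells at 0. Jun had no UMI in 48.5% and 63.5% of the thinned cells and 7 and 8 UMIs at the ninetieth percentile.

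Many RPE barcodes held almost no Malat1, and a cut at 0.05% of UMIs was set after this was seen. At or under it lay 76 of 278 RPE cells in library 1 (27.3%, exact interval 22.2% to 33.0%) and 327 of 828 in library 2 (39.5%, 36.1% to 42.9%). Among all other cells 313 of 8219 (3.81%) and 133 of 12573 (1.06%) did, among melanocyte-gated cells 8.23% and 0.336%, and among Pax6/Pcp4/Optc-gated cells 0 of 21 and 3.03%. After thinning to 3000 UMIs, at most 1 Malat1 UMI was found in 25.8% and 36.9% of RPE cells, against 3.19% and 0.313% of all other cells. The share in RPE cells was thus several times that of all other cells at equal depth in both libraries. After the same thinning it was 9.55% and 0.116% in melanocyte-gated cells, and 9.52% and 3.06% in Pax6/Pcp4/Optc-gated cells. Around the cut, 7 and 56 RPE cells had 0.025% to 0.05% and 12 and 30 had 0.05% to 0.1%.

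**Figure D4:**
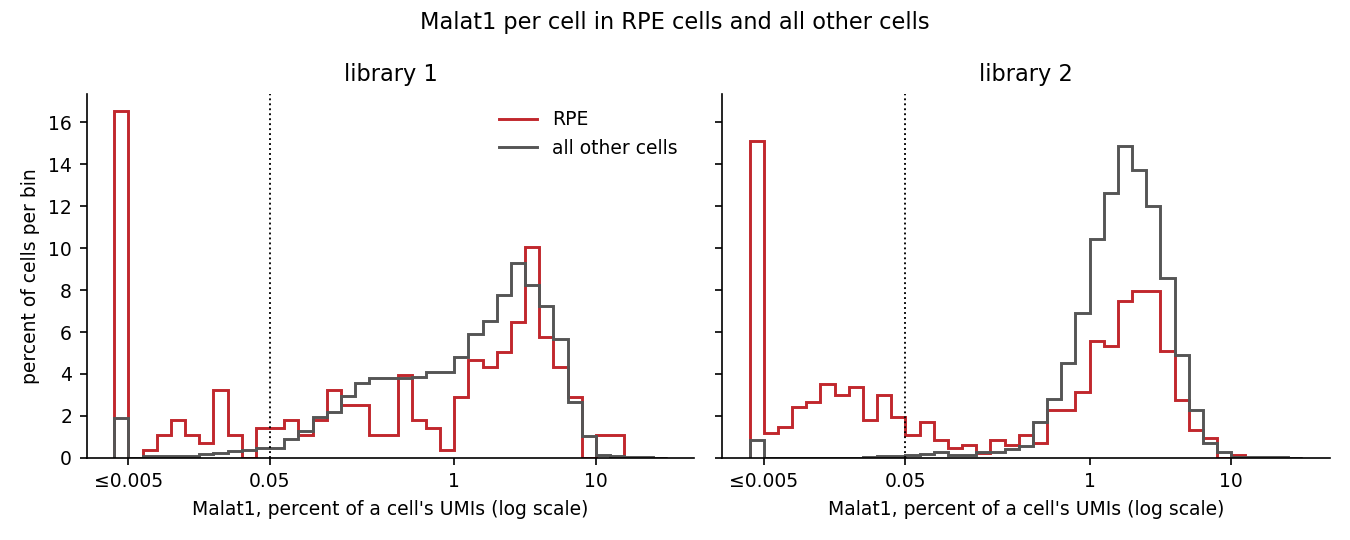
Malat1 as a percent of each cell's UMIs (log axis, with cells at or under 0.005% in the first bin) against the percent of cells in each bin, for RPE cells and all other cells, 1 panel for each library. Left of the dotted line at 0.05% lie 27.3% and 39.5% of RPE cells, against 3.81% and 1.06% of all other cells.

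The RPE cells with little Malat1 were shallower, with a median of 7112.5 and 9357 UMIs, against 31557.5 and 25855 UMIs in the rest of the RPE cells. Their median mitochondrial share was 2.01% and 2.102%, against 5.09% and 5.44%, and Scrublet marked 0 and 0 of them, against 2 and 38. The 6 gate genes took 11.2% and 10.8% of their UMIs at the median, against 8.49% and 8.63%. Most genes differed little between the 2 kinds of RPE cell. Of 5286 genes averaging 20 CPM or more in either kind, 0 were higher and 494 were lower (9.35%) by 1 or more on the log2 scale in both libraries. Their median log2 ratio was -0.15. In the RPE cells with little Malat1, 4274 of the 5286 genes reached this level. The other 1012 reached it through the rest of the RPE cells alone, where they were high, which favours lower over higher in this count. No test was made, since the same counts chose the barcodes. Of the immediate early and heat shock list, 16 of 16 members were lower in this count (median -2.82). Only 10 of them averaged 20 CPM or more in the RPE cells with little Malat1, and the other 6 reached that level through the rest alone, where they were high. Jun had 234 and 51.8 CPM in RPE cells with little Malat1, against 1043 and 1206 CPM in the rest. Fos had 154 and 60.0 CPM in RPE cells with little Malat1, against 607 and 1082 CPM in the rest. Xist, a long noncoding RNA that stays in the nucleus, had 12.9 and 2.94 CPM in RPE cells with little Malat1, against 215 and 297 CPM in the rest. All 3 were lower with little Malat1 in both libraries. Neat1, another nuclear long noncoding RNA, had a log2 ratio of -3.46, and Hmox1 and Atf3 of -2.95 and -3.53. The ratios of Slc16a8 (0.58) and Kcnj13 (0.11) were nearer to 0. The other 17 lists had medians between -0.63 and 0.34 with 0 to 2 members lower. The part of the lower depth and of the lower mitochondrial share in these ratios was not tested. Each library pooled male and female cells, whose shares in the 2 kinds of RPE cell were not measured. Their part in the Xist values was not tested.

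Leaving barcodes with little Malat1 out of both groups gave 3717 higher and 5373 lower genes against all other cells. The respiration list then had 10 members higher and 2 lower.

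**Figure D5:**
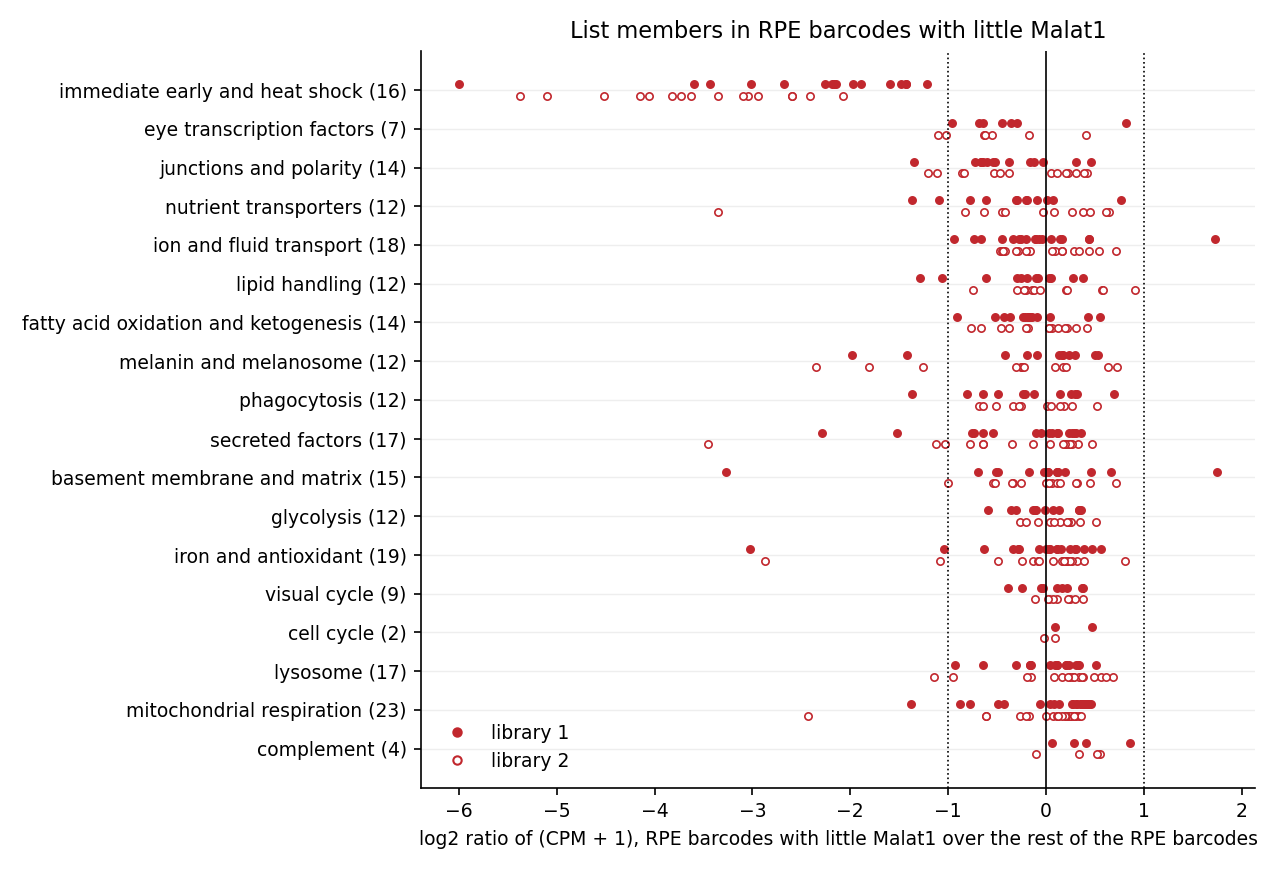
Log2 ratio of (CPM + 1) in RPE cells with little Malat1 over the rest of the RPE cells, 1 row for each list with the number of genes at 20 CPM or more in parentheses, filled points for library 1 and open points for library 2. All 16 immediate early and heat shock genes lie left of the dotted line at -1 in both libraries, with a median of -2.82, beside -0.15 over all 5286 genes. Of the 5286 genes, 1012 reached 20 CPM only through the rest of the RPE cells, as did 6 of the 16.

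A few RPE cells carried melanocyte transcripts. At least 0.2% of UMIs came from Pmel in 5 and 11 RPE cells, of which Scrublet marked 0 and 10, and this cut was also set after the values were seen. Ednrb, a receptor of melanocytes, had 647 and 1359 CPM in these cells, against 0.868 and 7.43 CPM in the rest of the RPE cells. Syt4 had 527 and 897 CPM in these cells, against 0.744 and 6.53 CPM in the rest. Without them the comparison with all other cells gave 3789 higher and 5586 lower genes.

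Between the libraries the RPE cells differed in few genes. Of 1458 genes at 100 CPM or more in at least 1 library, 9 differed by over 1.5 on the log2 scale, 4 higher in library 1 and 5 higher in library 2. The heat shock genes Hspa1a and Hspa1b had 100.4 and 56.4 CPM in library 1, against 450 and 299 CPM in library 2, and Hmox1 had 762 and 231 CPM in libraries 1 and 2. The globin Hbb-bs had 4.22 and 269 CPM in RPE cells of libraries 1 and 2, while its level in all other cells was 890 and 908 CPM. Hist2h2aa1 and Tuba1c, also among the 9, differed in the same direction in all other cells, and Tnfrsf12a and Dusp14 were among the 9 as well.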

How the data were processed

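Choroid and RPE of 8-week-old wild-type ICR mice were profiled in 2 libraries with 10x 3' chemistry (v3.1), per the labels, after collagenase at 1 mg/ml for 2 h, 0.25% trypsin for 30 min and a 40 µm filter, with 10000 cells loaded. The authors deposited raw UMI counts for each gene and barcode (32285 genes, 1959894 and 1856693 barcodes, 91741168 and 149570817 UMIs), made with Cell Ranger and mm10 per the submitters' processing notes, which give version 2.1.1 where the file headers name release 4. No cells had been selected in them.

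Counts were summed for each library and group of cells. They were tested with edgeR 4.0.16 (R 4.3.3, limma 3.58.1; TMM, filterByExpr, robust quasi-likelihood, Benjamini-Hochberg adjustment over all genes tested), with library as a block because both sums of a library come from the same animals. This leaves 1 residual degree of freedom, moderated across genes. The 10 gate genes and the mitochondrial genes were left out of the tests. Gates for the 2 smaller groups also required at most 1 UMI of Rpe65 and left their own gate genes untested. Standard errors were derived from the F statistic. With 2 pools, p-values hold for these samples only, and they rest mostly on a spread pooled over genes. The median prior degrees of freedom from this pooling were 501 against all other cells and 117 against Pax6/Pcp4/Optc-gated cells. Against melanocyte-gated cells they were infinite. The p-values also compare groups of cells that a gate on the same counts made. On simulated counts for RPE cells against all other cells (16752 genes), 96 of 100 genes changed by a log2 of 1.5 and 100 of 100 changed by 2 were recovered. The simulated spread was set below that of the data, whose common biological coefficient of variation was 0.142. No library effect was simulated, and far fewer genes were changed than were called in the data. The recovery in the data may therefore be lower.

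The genes named are the 20 highest and 10 lowest by log2 fold change with at least 100 CPM in the higher group, the 10 and 5 against melanocyte-gated cells, and tested members of 18 lists. A few of these genes are not reported here. The members, lists and tests were chosen with earlier results of these data known. Sequences and gene positions came from RefSeq and GENCODE tables of GRCm38, and counts shared by overlapping genes were not split. Cells were thinned, and doublets called with Scrublet, under Python 3.11.15 (scanpy 1.11.5, numpy 2.4.6, scipy 1.17.1). Alternatives were DESeq2 1.42.0, raw totals, no filter, no block, each RPE library left out, other gates, and free RNA taken from barcodes with at most 100 UMIs. Intervals cover counting error only.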

Additional observations from a re-analysis of the deposited data

Results flagged for a closer look

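Some barcodes outside the cell limits also met the RPE gate, as did 3.27% and 6.18% of the filtered cells in libraries 1 and 2. Their genes outside the gate were not examined, and the limit on other lineages is easier to meet at low depth. Of 380 barcodes with at least 500 but under 1000 UMIs in library 1, 25 met the RPE gate (6.58%, exact 95% interval 4.30% to 9.56%), against the 0.789% that a count of 0 allows. In library 2, 34 of 504 did (6.75%, 4.72% to 9.30%), against 0.595%. The share among filtered cells of library 2 lay within this interval. Of 70 barcodes with over 20% mitochondrial UMIs in library 2, 13 met it (18.6%, 10.3% to 29.7%), against 4.29%. In library 1, 3 of 32 did, which is at the limit. These barcodes entered no comparison.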

How the results depend on the processing

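No call of a named gene or list member reversed under the alternatives run. List medians near 0 turned, as given beside the ion transport, phagocytosis, lipid, iron and glycolysis lists. Against melanocyte-gated cells the balance of calls also turned, from 3006 higher and 2739 lower genes to 2427 and 3411 with raw UMI totals. The matrix and phagocytosis lists turned with it, from more members higher to more lower. Against all other cells the higher calls ran from 3060 (DESeq2) to 3890 (cells near the gate left out of the other cells) around 3823, and the lower calls from 4384 (DESeq2) to 6283 (raw UMI totals) around 5548. Without the replicate block they numbered 3739 and 5469, against melanocyte-gated cells 2937 and 2608, and against Pax6/Pcp4/Optc-gated cells 1718 and 1905. The block pairs the 2 sums of each library, which come from the same animals. Leaving out either RPE library, which leaves that group with 1 sample assumed to vary like the others, gave 3266 to 3813 higher and 5356 to 5464 lower genes. Against Pax6/Pcp4/Optc-gated cells the 1730 higher genes became 946 with DESeq2 and 938 to 1000 with either RPE library left out; the cause was not tested. The share of RPE cells moved to 2.25% and 4.19% with at most 1 UMI of the other lineages and to 2.49% and 3.87% without barcodes with little Malat1, 2 rules that remove RPE cells by construction. Of 6848 tested values of named genes and list members against all other cells, 6670 kept their direction and side of the threshold, 86 lost a call and 92 gained one. Of the genes named above, raw UMI totals also ended the calls of Atp6v1a (0.95) and Pfkl (0.93), leaving out RPE library 1 that of Tyr (-0.85), a marker share of 4% that of Ctss (-4.78), and leaving out Pmel-rich RPE cells that of Fabp5 (-4.96). Genes with few UMIs, and the few Pax6/Pcp4/Optc-gated cells, limit what could be called.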
